A study of Homo sapiens with 8 samples.

Results

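The collagen chain genes were followed in Caco-2/15 cells, a human colon cancer line that spontaneously takes on features of absorptive intestinal cells once it reaches confluence. Members were all protein-coding rows of the count files whose symbol has the form COL, a number, A and a number, which gave 44 of 19817 protein-coding genes and of 58302 gene IDs in all. They fall into 11 fibrillar chains, 6 type IV chains of basement membranes, 5 type VI chains and 22 chains of other classes. The series holds 8 RNA-seq libraries in 4 groups of 2, made from cells in which CRISPR-Cas9 editing placed a Flag tag in the 3′ region of 1 allele of an H2A.Z gene, H2A.Z being a variant of histone H2A. Z2flag cells are heterozygous H2AFV-Flag (H2A.Z.2) and Z1flag cells heterozygous H2AFZ-Flag (H2A.Z.1), and both were harvested 7 days after confluence (postconfluent) or before it (subconfluent). Every group carries a tag, so there is no untagged line among them, and the sources used here do not say whether each line is 1 clone or the replicates separate cultures. The p-values therefore measure the spread between these libraries, which may be technical.

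Collagens are trimers of alpha chains wound into a triple helix, and the chain genes a cell transcribes decide which trimers it can make. Fibrillar chains form the banded fibrils of connective tissue, type IV chains the sheet under epithelia, and type VI chains beaded microfibrils beside basement membranes, while the other classes bind fibril surfaces, anchor epithelia or span the membrane. In the intestine most fibrillar and type VI collagen is known as a product of fibroblasts and smooth muscle, whereas epithelial cells also contribute to their own basement membrane.

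Library depth was 17063826 to 40881682 gene counts, and reads on no annotated feature made up 20.6% to 32.0% of the reads listed. That share was highest in the first replicates of Z1flag cells, at 31.4% in the postconfluent and 32.0% in the subconfluent library, and the postconfluent one also stood somewhat apart from the other postconfluent libraries, with correlations of 0.962 to 0.979. Levels below are TMM-scaled CPM, that is counts scaled to a common library size. The epithelial genes EPCAM and CDH1 were at 439 to 831 CPM and 662 to 1190 CPM. Among intestinal genes, VIL1 was at 418 to 646 CPM and CDX2 at 33.97 CPM or more in every library. In contrast, CDX1, KRT20, GPA33 and LGALS4 reached at most 0.189, 1.38, 3.03 and 1.10 CPM. Of 11 tested genes among 12 epithelial markers 7 were higher and 2 lower in the average over both lines. In that average 27.8% of all tested genes were higher and 27.5% lower (55.4% in either direction), which holds for the marker lists below too. Of the 7, 3 (KRT20, GPA33 and LGALS4) met the filter on low counts only through postconfluent libraries. The 2 lower ones were the keratins KRT8, at 1138 to 3631 CPM in postconfluent and 5866 to 7122 CPM in subconfluent libraries, and KRT18, at 505 to 1791 CPM and 3448 to 4551 CPM. With them the epithelial list summed to 4783 to 8430 CPM in postconfluent libraries, against 11970 to 14243 CPM in subconfluent ones. Fibroblast markers summed to 34.6 to 56.4 CPM in postconfluent libraries, against 166 to 208 CPM in subconfluent ones. PDGFRA, LUM and PDGFRB carried that sum, and TCF21 and POSTN were at 0 in all 8 libraries. In the average over both lines 2 of the 3 tested genes of the 10 on this list were lower and none higher. TAGLN, an actin-binding gene, gave most of a smooth muscle sum of 21.7 to 172 CPM in postconfluent and 543 to 1495 CPM in subconfluent libraries, while ACTA2 did not exceed 0.0451 CPM. Of the 4 tested genes among 7 on the smooth muscle list 3 were lower in the average over both lines, of which 1 passed in Z2flag. Among the 3, ACTG2 met the filter only through subconfluent libraries. DES, the muscle filament desmin, was higher at 0.255 to 1.21 CPM in postconfluent and 0 to 0.113 CPM in subconfluent libraries (log2 2.83, adjusted p = 0.0304 in Z2flag, and log2 3.68, adjusted p = 0.0264 in Z1flag, edgeR), though it met the filter only through postconfluent libraries. The endothelial genes KDR, CLEC14A and ERG were at 0 throughout, yet both tested genes among 7 on that list were higher in the average over both lines. PECAM1, an adhesion molecule, was at 6.73 to 21.6 CPM in postconfluent and 4.51 to 11.1 CPM in subconfluent libraries (adjusted p = 0.0151, edgeR), and VWF, von Willebrand factor, which met the filter only through postconfluent libraries, at 0.361 to 1.16 CPM and 0.0901 to 0.281 CPM (adjusted p = 0.00543). In Z2flag neither PECAM1 (log2 0.13, adjusted p = 0.825, edgeR) nor VWF (log2 1.69, adjusted p = 0.0657) passed. In Z1flag both did (log2 1.91, adjusted p = 0.0067, and log2 2.35, adjusted p = 0.0249), and the states of PECAM1 overlapped. The endothelial sum was 8.10 to 22.8 CPM in postconfluent and 4.64 to 11.3 CPM in subconfluent libraries. The cartilage genes ACAN, CNMD and HAPLN1 were at 0 throughout, and neither tested gene among 7 on that list passed. SOX9, a transcription factor also known in intestinal crypts, was at 49.2 to 60.8 CPM in postconfluent and 60.6 to 108 CPM in subconfluent libraries, and MATN3 at 1.89 to 7.66 CPM and 4.42 to 5.40 CPM, for a cartilage sum of 51.2 to 68.6 CPM and 65.7 to 113 CPM. Whether other cell types took part in the collagen results below was not tested, and in bulk RNA fewer cells of a type cannot be told apart from less RNA per cell.

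Of the 44 genes, 25 passed the filter on low counts and were tested. Among the chains detected in both states, postconfluent cells of both lines had more mRNA of COL6A1 and COL6A2 of type VI, of the fibrillar chains COL1A1, COL5A1 and COL27A1, and of COL7A1, COL9A2 and COL18A1, and less of COL4A2 and COL4A6 of type IV, COL3A1 and COL12A1. In Z2flag cells 14 collagen genes were higher and 6 lower (edgeR quasi-likelihood test, adjusted p under 0.05), against 18.3% of all tested genes higher and 19.3% lower (37.6% in either direction). In Z1flag cells 14 were higher and 4 lower, against 21.3% and 19.1% of all tested genes (40.5%). Averaged over both lines 15 were higher and 6 lower, against 27.8% and 27.5% (55.4%). The higher set includes 6 genes, COL2A1, COL5A3, COL9A3, COL16A1, COL17A1 and COL20A1, that met the filter of about 0.426 CPM in 2 libraries only through postconfluent cells. For these the filter itself favoured a higher call. Among the 19 genes that met it in both states, 9 were higher and 6 lower in the average over both lines. The shares of all tested genes, here and below, also include genes that met the filter in a single state.

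Most calls were shared by the lines. Of the 25 tested genes, 13 were higher in both lines (14.4% of all tested genes) and 4 lower in both (14%), 3 (COL4A1, COL9A3 and COL26A1) passed in Z2flag alone, COL28A1 passed in Z1flag alone, and COL5A2, COL11A2, COL4A4 and COL4A5 passed in neither. Of the 13, 5 (COL2A1, COL5A3, COL16A1, COL17A1 and COL20A1) met the filter only through postconfluent libraries, which leaves 8 higher and 4 lower in both lines among the 19 that met it in both states. No collagen was called in opposite directions (0.00548% of all tested genes). All 4 postconfluent libraries lay above all 4 subconfluent ones for 15 genes (25.1% of all tested genes) and below them for 5 (26.1%; 51.2% in either direction), while for the other 5 the states overlapped. The 15 include all 6 genes that met the filter only through postconfluent libraries, so among the other 19 the states separated upward for 9 and downward for 5. Some lower calls in Z2flag ended whichever Z2flag library was left out, as given by gene below. The same held without either subconfluent Z1flag library or without postconfluent Z1flag replicate 2. The share of all tested genes called in Z2flag rose without postconfluent Z1flag replicate 2 and fell in the other of these fits.

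**Figure D1:**
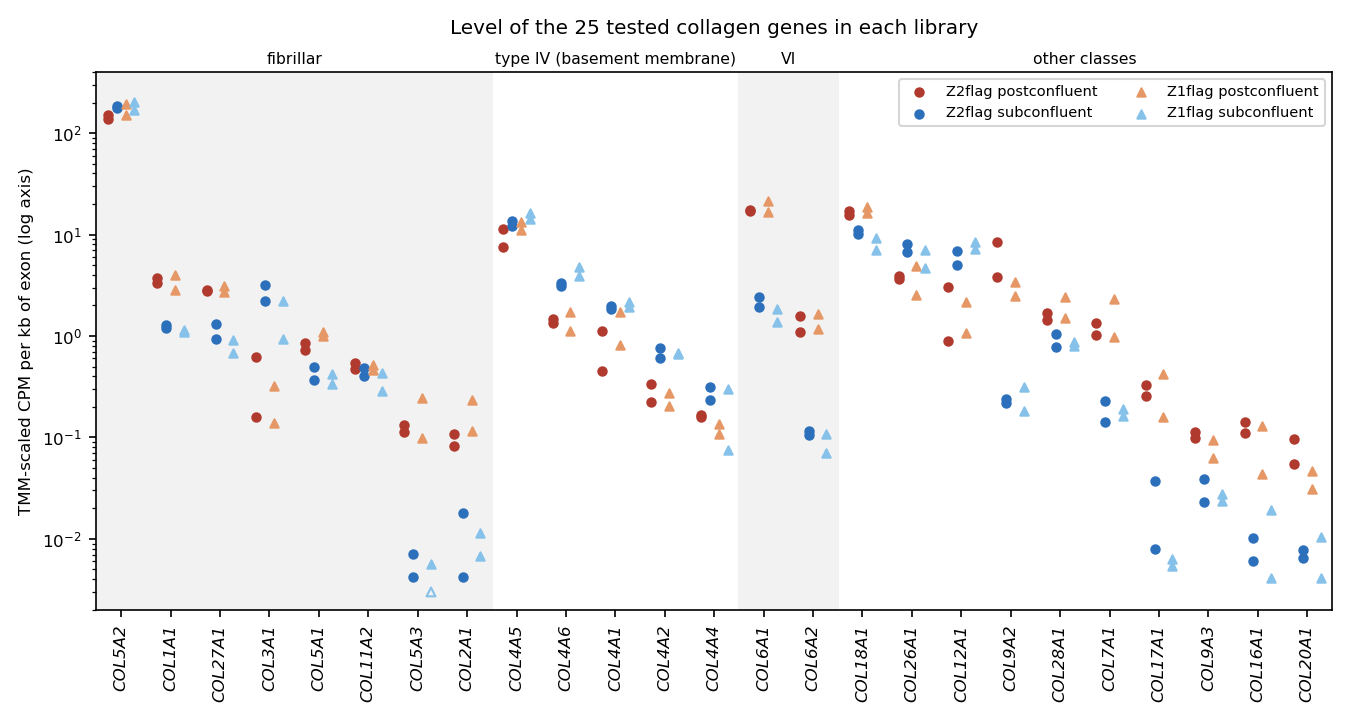
Each point is 1 library. The vertical log axis gives TMM-scaled CPM per kilobase of exon for the 25 tested collagen genes, ordered within a class by mean level, with circles for Z2flag, triangles for Z1flag, red and orange for postconfluent and dark and light blue for subconfluent cells. The open triangle at the bottom is COL5A3 in subconfluent Z1flag replicate 1, which had 0 counts and is drawn at an arbitrary low position. COL5A2 stands far above all other chains in every library, and COL6A1 and COL9A2 show postconfluent points well above the subconfluent ones.

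**Figure D2:**
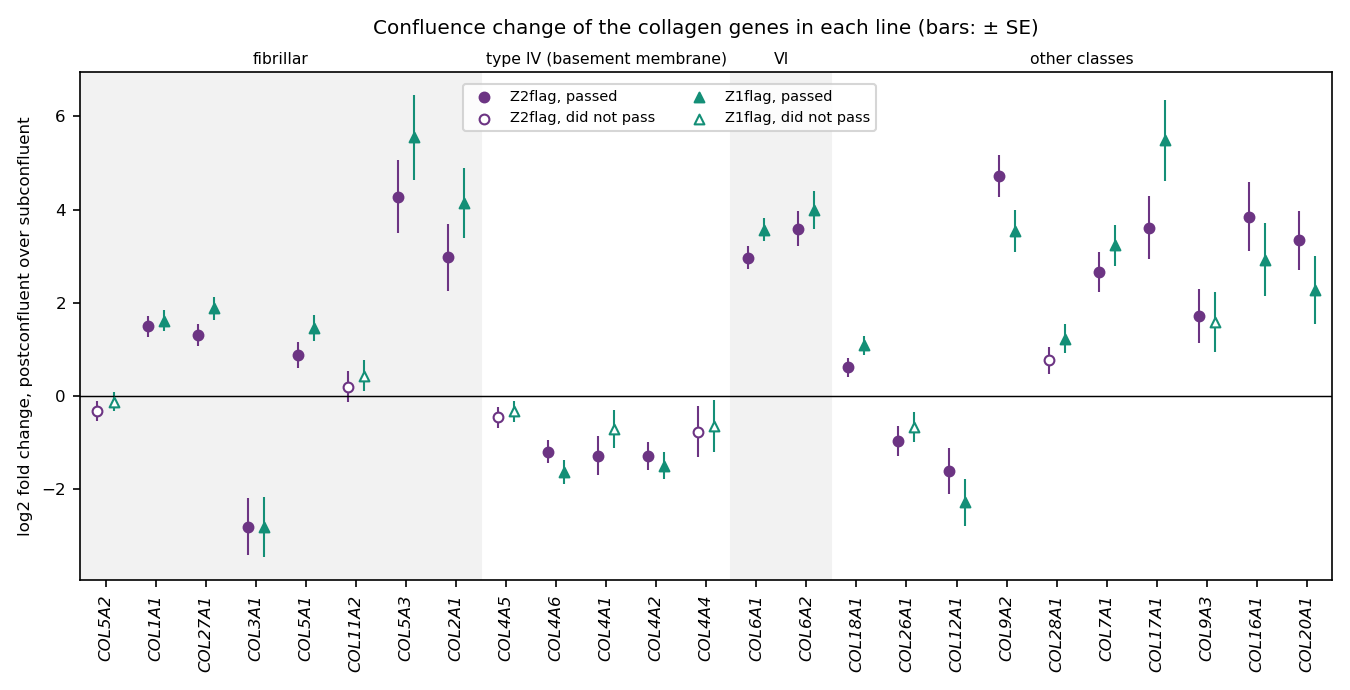
Points give the log2 fold change of postconfluent over subconfluent cells for each tested collagen gene, circles for Z2flag and triangles for Z1flag, with bars of ± 1 SE from the edgeR fit. Filled symbols passed an adjusted p of 0.05. All tested type IV chains lie below 0, and both tested type VI chains lie near 3 to 4.

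Both tested type VI chains rose in both lines, as did 14.4% of all tested genes. COL6A1 stood at 93.3 and 91.2 CPM in postconfluent Z2flag libraries, against 13.1 and 10.4 CPM in subconfluent ones, and at 116 and 88.9 CPM in postconfluent Z1flag libraries, against 7.34 and 9.89 CPM in subconfluent ones. COL6A1 (chromosome 21, 45981737 to 46005050, plus strand, GRCh38) encodes a short chain of the type VI microfibril, and its postconfluent libraries lay far above the subconfluent ones in both lines. By edgeR, the log2 fold change came to 2.97 ± 0.24 (SE, adjusted p = 9.76e-05) in Z2flag and 3.57 ± 0.25 (adjusted p = 6.82e-05) in Z1flag. COL6A2 stood at 8.49 and 5.89 CPM in postconfluent Z2flag libraries, against 0.618 and 0.563 CPM in subconfluent ones, and at 8.96 and 6.33 CPM in postconfluent Z1flag libraries, against 0.586 and 0.382 CPM in subconfluent ones. COL6A2, its neighbour on chromosome 21 (46098097 to 46132849, plus strand), encodes the other short chain and showed the same separation at a lower level. Per kilobase of exon, COL6A1 stood at 11.1 to 15.6 times COL6A2 in postconfluent and at 12.6 to 26.1 times in subconfluent libraries, so these ratios overlapped. COL6A2 had log2 fold changes of 3.60 ± 0.38 (SE, adjusted p = 0.000252) in Z2flag and 3.99 ± 0.41 (adjusted p = 0.000211) in Z1flag. The calls of COL6A1 and COL6A2 held in every alternative fit. COL6A3, the long chain of the usual heterotrimer, had at most 12 counts in a library and 0.454 CPM. COL6A5 and COL6A6, which can take its place, had at most 1 count and were not tested either.

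Per kilobase of exon, COL6A1 had rank 2 among the collagens in postconfluent cells and rank 9 in subconfluent cells, at means of 18.2 and 1.91 CPM per kilobase. Type VI chains together made up 7.999% to 8.89% of the collagen CPM per kilobase in postconfluent libraries, against 0.677% to 1.13% in subconfluent ones. Fibrillar chains took 70.9% to 74.5% in postconfluent and 78.6% to 81.2% in subconfluent libraries, and type IV chains 4.70% to 6.66% and 7.97% to 11.0%. Other chains took 10.7% to 15.9% in postconfluent and 9.76% to 11.3% in subconfluent libraries, which overlap. The summed collagen level did not separate the states, at 204 to 269 CPM per kilobase in postconfluent and 220 to 256 in subconfluent libraries. All 44 genes together held 0.153% to 0.224% of the gene counts of a library.

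**Figure D3:**
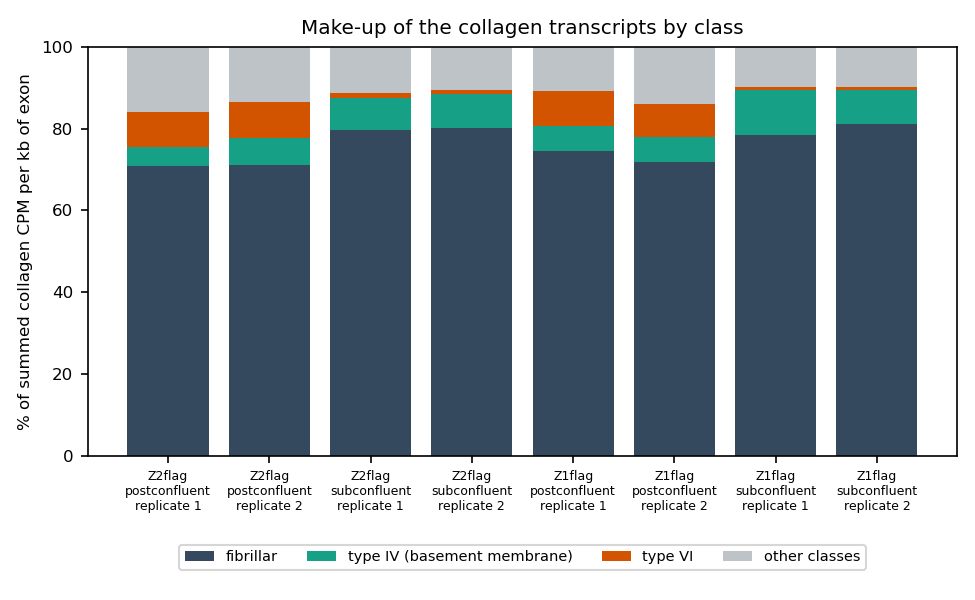
Stacked bars give the percentage of the summed collagen CPM per kilobase of exon that falls to each class in each of the 8 libraries, postconfluent left of subconfluent within each line. The orange type VI band is 7.999% to 8.89% high in postconfluent and 0.677% to 1.13% in subconfluent libraries.

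Among the 11 fibrillar chains, 8 were tested. COL1A1, COL2A1, COL5A1, COL5A3 and COL27A1 were higher and COL3A1 lower in both lines, while COL5A2 and COL11A2 did not pass. COL2A1 and COL5A3 met the filter only through postconfluent libraries, so of the 6 that met it in both states 3 were higher and 1 lower. Of all tested genes 14.4% were higher and 14% lower in both lines. COL5A2 (chromosome 2, 189031896 to 189225312, minus strand) encodes a chain of type V collagen, which nucleates fibrils. COL5A2 stood at 1122 and 1022 CPM in postconfluent Z2flag libraries, against 1303 and 1367 CPM in subconfluent ones, and at 1434 and 1127 CPM in postconfluent Z1flag libraries, against 1263 and 1509 CPM in subconfluent ones. The states overlapped, and this 1 gene accounted for 67.1% to 71.4% of the collagen CPM per kilobase in postconfluent and 76.7% to 79.2% in subconfluent libraries. The log2 fold change of COL5A2 was -0.32 ± 0.20 (SE, adjusted p = 0.242) in Z2flag and -0.11 ± 0.20 (adjusted p = 0.683) in Z1flag.

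COL5A1 encodes the usual partner of COL5A2 in type V trimers and was present at a much lower level. COL5A1 stood at 9.65 and 8.18 CPM in postconfluent Z2flag libraries, against 5.56 and 4.14 CPM in subconfluent ones, and at 12.1 and 11.1 CPM in postconfluent Z1flag libraries, against 3.78 and 4.69 CPM in subconfluent ones. By edgeR, the log2 fold change came to 0.88 ± 0.28 (SE, adjusted p = 0.0304) in Z2flag and 1.45 ± 0.28 (adjusted p = 0.00303) in Z1flag. Its Z2flag call ended when any 1 of both subconfluent Z1flag libraries, both subconfluent Z2flag libraries or postconfluent Z2flag replicate 1 was left out (log2 0.67 to 1.09, adjusted p = 0.0506 to 0.276, edgeR), with adjusted p from 0.0105 to 0.276 over all alternatives. The level of COL5A2 over that of COL5A1, both per kilobase, was 152 to 188 in postconfluent and 352 to 501 in subconfluent libraries, so these ratios did not overlap. COL5A3 encodes a further type V chain. COL5A3 stood at 0.772 and 0.902 CPM in postconfluent Z2flag libraries, against 0.0475 and 0.0281 CPM in subconfluent ones, and at 1.66 and 0.663 CPM in postconfluent Z1flag libraries, against 0 and 0.0382 CPM in subconfluent ones. It was below 0.05 CPM in every subconfluent library and above 0.6 CPM in every postconfluent one. COL5A3 had 29 counts in postconfluent Z2flag libraries against 3 in subconfluent ones, a ratio of scaled counts of 21.6 (95% exact interval 6.69 to 111, counting error only). In Z1flag cells it had 57 counts in postconfluent libraries against 1 in subconfluent ones, a ratio of 59.9 with an interval of 10.3 to 2.41e+03.

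COL1A1 (chromosome 17, 50183289 to 50201632, minus strand) encodes the main chain of type I collagen. COL1A1 stood at 32.4 and 36.6 CPM in postconfluent Z2flag libraries, against 12.6 and 11.8 CPM in subconfluent ones, and at 28.1 and 39.3 CPM in postconfluent Z1flag libraries, against 11.3 and 10.6 CPM in subconfluent ones. The groups did not overlap in either line. COL1A1 had log2 fold changes of 1.50 ± 0.22 (SE, adjusted p = 0.00106) in Z2flag and 1.62 ± 0.23 (adjusted p = 0.000678) in Z1flag. COL1A2, which encodes the other chain of type I collagen, had 0 counts in all 8 libraries, which allows up to 0.0145 CPM over their summed depth. COL27A1, a fibrillar chain of cartilage, moved by a like amount. COL27A1 stood at 39.7 and 38.9 CPM in postconfluent Z2flag libraries, against 18.4 and 13.1 CPM in subconfluent ones, and at 43.9 and 37.9 CPM in postconfluent Z1flag libraries, against 9.42 and 12.7 CPM in subconfluent ones. The log2 fold change of COL27A1 was 1.32 ± 0.24 (SE, adjusted p = 0.00261) in Z2flag and 1.88 ± 0.25 (adjusted p = 0.00049) in Z1flag. COL2A1 encodes the main cartilage chain. COL2A1 stood at 0.551 and 0.722 CPM in postconfluent Z2flag libraries, against 0.119 and 0.0281 CPM in subconfluent ones, and at 1.55 and 0.765 CPM in postconfluent Z1flag libraries, against 0.0451 and 0.0763 CPM in subconfluent ones. The states did not overlap in either line. COL2A1 had 22 counts in postconfluent against 6 in subconfluent Z2flag libraries, a ratio of 8.19 (3.22 to 24.7), and 56 against 3 in Z1flag, a ratio of 19.6 (6.38 to 98.0). Its Z2flag call ended without postconfluent Z2flag replicate 2 or subconfluent Z2flag replicate 2 (log2 2.87 and 2.36, adjusted p = 0.0516 and 0.0954, edgeR; 0.00114 to 0.0954 over all alternatives).

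COL3A1 (chromosome 2, 188974320 to 189012746, plus strand) encodes type III collagen, which accompanies type I in soft tissues, and was the 1 fibrillar chain that fell. COL3A1 stood at 4.19 and 1.08 CPM in postconfluent Z2flag libraries, against 21.8 and 15.03 CPM in subconfluent ones, and at 0.945 and 2.19 CPM in postconfluent Z1flag libraries, against 6.40 and 15.1 CPM in subconfluent ones. Every postconfluent library lay below every subconfluent one, though subconfluent Z1flag replicate 1 was the closest to them. By edgeR, the log2 fold change came to -2.79 ± 0.62 (SE, adjusted p = 0.00667) in Z2flag and -2.80 ± 0.64 (adjusted p = 0.00681) in Z1flag. In Z1flag the call ended without postconfluent replicate 1 or subconfluent replicate 2 (log2 -2.25 and -2.05, adjusted p = 0.0505 and 0.06, edgeR; up to 0.06 over all alternatives). COL3A1 and COL5A2 are convergent neighbours whose annotated ends lie 19149 bases apart, and COL5A2 passed in neither line. PDGFRA and LUM, from the fibroblast list above, were also lower in postconfluent cells. PDGFRB did not pass, and the other genes on that list had too few counts to be tested. The part of these genes in the fall of COL3A1 was not tested. COL11A2, a minor fibrillar chain of cartilage, ranged from 3.11 to 3.67 CPM in postconfluent and from 1.94 to 3.24 CPM in subconfluent libraries and did not pass.

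Type IV chains form the network collagen of basement membranes. Of 6 genes 5 were tested, all 5 met the filter in both states, none was higher, 3 were lower in Z2flag (COL4A1, COL4A2 and COL4A6) and 2 in Z1flag (COL4A2 and COL4A6). Of all tested genes 19.3% were lower in Z2flag and 19.1% in Z1flag (37.6% and 40.5% in either direction). The 6 genes sit in 3 head-to-head pairs, in which both partners start close together and run apart. COL4A2 and COL4A1 on chromosome 13 have RefSeq start sites 127 bases apart, COL4A5 and COL4A6 on chromosome X 380 bases apart, and COL4A3 and COL4A4 on chromosome 2 419 bases apart. The start regions of the first pairs are shown because the partners share that sequence. They run from 250 bases before to 50 bases after each RefSeq start site on GRCh38.p14, each 5′ to 3′ on its gene's own strand, and capitals mark the bases that both windows of a pair hold (226 bases for COL4A2 and COL4A1, 121 for COL4A5 and COL4A6). The windows are chr13:110307034-110307333 (plus) for COL4A2, chr13:110307108-110307407 (minus) for COL4A1, chrX:108439588-108439887 (plus) for COL4A5 and chrX:108439409-108439708 (minus) for COL4A6.
COL4A2: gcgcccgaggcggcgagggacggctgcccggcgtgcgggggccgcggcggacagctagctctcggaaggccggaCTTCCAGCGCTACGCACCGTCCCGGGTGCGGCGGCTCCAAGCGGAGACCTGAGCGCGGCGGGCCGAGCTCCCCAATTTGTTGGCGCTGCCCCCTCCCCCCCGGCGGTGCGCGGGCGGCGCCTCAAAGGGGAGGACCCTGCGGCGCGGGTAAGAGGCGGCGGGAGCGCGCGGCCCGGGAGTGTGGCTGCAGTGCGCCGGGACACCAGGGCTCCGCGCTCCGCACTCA
COL4A1: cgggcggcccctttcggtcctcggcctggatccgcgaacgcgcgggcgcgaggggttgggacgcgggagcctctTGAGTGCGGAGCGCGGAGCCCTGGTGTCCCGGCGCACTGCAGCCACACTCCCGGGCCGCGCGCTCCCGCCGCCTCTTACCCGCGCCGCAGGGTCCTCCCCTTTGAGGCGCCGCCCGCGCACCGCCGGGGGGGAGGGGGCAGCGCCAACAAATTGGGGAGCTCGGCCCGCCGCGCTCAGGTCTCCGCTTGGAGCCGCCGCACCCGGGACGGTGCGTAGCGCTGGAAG
COL4A5: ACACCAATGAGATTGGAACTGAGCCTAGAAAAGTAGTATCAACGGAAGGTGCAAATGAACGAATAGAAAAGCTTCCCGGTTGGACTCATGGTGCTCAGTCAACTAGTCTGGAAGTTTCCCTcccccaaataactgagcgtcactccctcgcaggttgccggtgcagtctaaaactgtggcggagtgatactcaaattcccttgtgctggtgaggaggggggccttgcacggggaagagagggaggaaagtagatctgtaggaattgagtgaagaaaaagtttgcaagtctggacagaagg
COL4A6: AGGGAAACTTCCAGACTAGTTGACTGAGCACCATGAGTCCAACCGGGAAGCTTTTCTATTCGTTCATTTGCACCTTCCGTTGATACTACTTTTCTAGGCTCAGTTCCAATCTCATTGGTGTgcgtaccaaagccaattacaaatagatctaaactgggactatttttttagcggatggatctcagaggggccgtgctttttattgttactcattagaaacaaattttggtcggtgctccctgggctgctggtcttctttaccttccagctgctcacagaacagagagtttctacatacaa

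COL4A1 and COL4A2 encode the chains of the common type IV trimer. COL4A2 stood at 6.51 and 4.27 CPM in postconfluent Z2flag libraries, against 14.7 and 11.6 CPM in subconfluent ones, and at 3.97 and 5.26 CPM in postconfluent Z1flag libraries, against 12.8 and 13.01 CPM in subconfluent ones. Postconfluent libraries lay below subconfluent ones in both lines. COL4A2 had log2 fold changes of -1.28 ± 0.29 (SE, adjusted p = 0.00764) in Z2flag and -1.49 ± 0.30 (adjusted p = 0.00355) in Z1flag. The Z2flag call ended without postconfluent Z2flag replicate 2 or subconfluent Z2flag replicate 1 (log2 -0.92 and -1.12, adjusted p = 0.0723 and 0.0738, edgeR; 0.000378 to 0.0738 over all alternatives). COL4A1 stood at 16.4 and 6.62 CPM in postconfluent Z2flag libraries, against 26.9 and 29.1 CPM in subconfluent ones, and at 25.1 and 11.99 CPM in postconfluent Z1flag libraries, against 32.2 and 28.2 CPM in subconfluent ones. Postconfluent replicates of COL4A1 were far apart in both lines, and Z1flag replicate 1, at 25.1 CPM, came close to the subconfluent level. The log2 fold change of COL4A1 was -1.28 ± 0.42 (SE, adjusted p = 0.0353) in Z2flag and -0.70 ± 0.41 (adjusted p = 0.198) in Z1flag. The average over both lines passed (log2 -0.99 ± 0.29, adjusted p = 0.0155). Without postconfluent Z2flag replicate 2 the average was -0.69 with an adjusted p of 0.0557 (2.45e-07 to 0.0557 over all alternatives), and the Z2flag change was -0.68 with an adjusted p of 0.243. The Z2flag call also ended without either subconfluent Z2flag or either subconfluent Z1flag library (adjusted p of 0.052 or more; 1.49e-05 to 0.243 over all alternatives). Per kilobase, COL4A1 stood at 2.03 to 8.29 times COL4A2 in postconfluent libraries and at 2.40 to 3.29 times in subconfluent ones, and the highest ratio was that of postconfluent Z1flag replicate 1.

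COL4A5 and COL4A6 encode chains of the trimer found in epithelial and smooth muscle basement membranes. COL4A6 stood at 12.3 and 13.7 CPM in postconfluent Z2flag libraries, against 28.7 and 30.8 CPM in subconfluent ones, and at 10.3 and 15.97 CPM in postconfluent Z1flag libraries, against 44.9 and 36.2 CPM in subconfluent ones. No postconfluent library reached the subconfluent range. By edgeR, the log2 fold change came to -1.19 ± 0.25 (SE, adjusted p = 0.00495) in Z2flag and -1.63 ± 0.25 (adjusted p = 0.00104) in Z1flag. In Z2flag the call ended without postconfluent replicate 1 (log2 -1.04, adjusted p = 0.059, edgeR; 4.33e-05 to 0.059 over all alternatives). COL4A5 stood at 89.8 and 134 CPM in postconfluent Z2flag libraries, against 144 and 161 CPM in subconfluent ones, and at 159 and 133 CPM in postconfluent Z1flag libraries, against 195 and 169 CPM in subconfluent ones. COL4A5 was the most abundant type IV chain per kilobase in both states, and its states overlapped. COL4A5 had log2 fold changes of -0.45 ± 0.23 (SE, adjusted p = 0.144) in Z2flag and -0.32 ± 0.23 (adjusted p = 0.284) in Z1flag. The level of COL4A5 over COL4A6 per kilobase was 5.69 to 12.1 in postconfluent and 3.40 to 4.08 in subconfluent libraries, so the ratios did not overlap between the states. COL4A4 ranged from 1.10 to 1.68 CPM in postconfluent and from 0.766 to 3.18 CPM in subconfluent libraries and did not pass. Its partner COL4A3 had at most 9 counts in a library and was not tested.

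The 22 other chains include collagens that bind fibril surfaces (FACIT), anchor epithelia, span the membrane or carry endostatin, and 10 of them were tested. In the average over both lines 8 were higher and 2 lower, against 27.8% and 27.5% of all tested genes. Of the 8, 4 (COL9A3, COL16A1, COL17A1 and COL20A1) met the filter only through postconfluent libraries, and of the 6 that met it in both states 4 were higher and 2 lower. COL9A2, COL7A1 and COL6A2 had the largest fold changes among the collagens that reached 5 CPM in a group and have a RefSeq promoter window, and their windows are shown for that reason. Capitals mark matches, on either strand and counting overlaps, to the GC box GGGCGG, the CCAAT box CCAAT and the TATA box TATAAA. The windows are chr1:40317237-40317536 (minus) for COL9A2, chr3:48595280-48595579 (minus) for COL7A1 and chr21:46097862-46098161 (plus) for COL6A2.
COL9A2: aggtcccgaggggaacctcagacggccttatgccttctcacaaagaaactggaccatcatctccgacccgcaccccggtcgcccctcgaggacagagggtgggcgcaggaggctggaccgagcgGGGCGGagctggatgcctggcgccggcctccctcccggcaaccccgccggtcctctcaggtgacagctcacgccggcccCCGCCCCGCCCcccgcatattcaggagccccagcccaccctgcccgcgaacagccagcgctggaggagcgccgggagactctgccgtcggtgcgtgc
COL7A1: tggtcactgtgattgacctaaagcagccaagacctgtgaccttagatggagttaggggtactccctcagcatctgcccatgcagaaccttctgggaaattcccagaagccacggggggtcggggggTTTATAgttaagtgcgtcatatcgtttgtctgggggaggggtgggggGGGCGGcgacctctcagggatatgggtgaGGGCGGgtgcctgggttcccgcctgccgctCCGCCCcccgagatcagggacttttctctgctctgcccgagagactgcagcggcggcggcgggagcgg
COL6A2: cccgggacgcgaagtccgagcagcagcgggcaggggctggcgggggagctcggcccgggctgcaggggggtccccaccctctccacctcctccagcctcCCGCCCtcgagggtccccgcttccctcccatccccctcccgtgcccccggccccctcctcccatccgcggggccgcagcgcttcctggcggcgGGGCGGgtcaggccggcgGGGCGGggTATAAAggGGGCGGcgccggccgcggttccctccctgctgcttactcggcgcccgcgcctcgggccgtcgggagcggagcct

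COL9A2 held 3 GC box matches, of which 2 overlap by 1 base, COL7A1 held 3 GC boxes and 1 TATA box, and COL6A2 held 4 GC boxes and 1 TATA box. Over the 32 collagens with a window, 18 held a GC box, 10 a CCAAT box and 5 a TATA box, against 44.6%, 35.7% and 12% of 27305 promoters in the RefSeq table. Of the 4 type IV windows printed above, those of COL4A1 and COL4A2 held both GC and CCAAT boxes, and those of COL4A5 and COL4A6 held CCAAT boxes and no GC box. A match is a run of letters and does not show that a factor binds there.

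COL9A2 (chromosome 1, 40300487 to 40317813, minus strand) encodes a chain of type IX collagen, known from the surface of cartilage fibrils. COL9A2 stood at 35.3 and 16.1 CPM in postconfluent Z2flag libraries, against 0.998 and 0.929 CPM in subconfluent ones, and at 10.5 and 14.4 CPM in postconfluent Z1flag libraries, against 0.766 and 1.34 CPM in subconfluent ones. It was near 1 CPM in all subconfluent libraries and above 10 CPM in all postconfluent ones, highest in Z2flag replicate 1. The log2 fold change of COL9A2 was 4.73 ± 0.45 (SE, adjusted p = 0.000178) in Z2flag and 3.55 ± 0.44 (adjusted p = 0.00041) in Z1flag. The other type IX chains were scarce, and COL9A1 had 0 counts in all 8 libraries. COL9A3 stood at 0.551 and 0.481 CPM in postconfluent Z2flag libraries, against 0.190 and 0.113 CPM in subconfluent ones, and at 0.454 and 0.306 CPM in postconfluent Z1flag libraries, against 0.135 and 0.114 CPM in subconfluent ones. All postconfluent libraries of COL9A3 lay above all subconfluent ones, at well under 1 CPM. COL9A3 shares 45 exon bases with TCFL5 on the opposite strand, a gene at a mean of 21.7 CPM, so its few counts are uncertain. It rested on 18 counts in postconfluent against 12 in subconfluent Z2flag libraries, a ratio of 3.35 (1.53 to 7.62), and on 18 against 6 in Z1flag, a ratio of 3.15 (1.20 to 9.70). Its Z2flag call ended without any 1 of both postconfluent Z2flag and all 4 subconfluent libraries (adjusted p = 0.0788 to 0.305, edgeR; 0.0229 to 0.305 over all alternatives). The average over both lines passed (log2 1.66 ± 0.43, adjusted p = 0.00816) but not without subconfluent Z2flag replicate 2 (log2 1.49, adjusted p = 0.0661; 0.00507 to 0.0661 over all alternatives).

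COL7A1 (chromosome 3, 48564073 to 48595267, minus strand) encodes the anchoring fibril collagen that ties epithelia to the stroma. COL7A1 stood at 14.8 and 11.2 CPM in postconfluent Z2flag libraries, against 2.54 and 1.58 CPM in subconfluent ones, and at 25.9 and 10.8 CPM in postconfluent Z1flag libraries, against 2.12 and 1.79 CPM in subconfluent ones. Postconfluent Z1flag replicate 1 was the highest library, and no subconfluent library came near the postconfluent range. By edgeR, the log2 fold change came to 2.66 ± 0.43 (SE, adjusted p = 0.0015) in Z2flag and 3.23 ± 0.45 (adjusted p = 0.000638) in Z1flag. COL17A1 encodes the transmembrane collagen of hemidesmosomes, the junctions that hold epithelial cells to the basement membrane. COL17A1 stood at 2.32 and 1.80 CPM in postconfluent Z2flag libraries, against 0.261 and 0.0563 CPM in subconfluent ones, and at 2.95 and 1.12 CPM in postconfluent Z1flag libraries, against 0.0451 and 0.0382 CPM in subconfluent ones. It was nearly silent in subconfluent Z1flag cells, where 2 counts stood against 100 in postconfluent libraries, a ratio of 52.6 (14.2 to 440), and the ratio in Z2flag was 12.4 (6.79 to 24.3). The calls of COL7A1 and COL17A1 held without any 1 library.

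COL18A1 encodes type XVIII collagen, a proteoglycan of epithelial and vascular basement membranes whose end fragment is endostatin. COL18A1 stood at 146 and 131 CPM in postconfluent Z2flag libraries, against 94.7 and 86.3 CPM in subconfluent ones, and at 137 and 160.2 CPM in postconfluent Z1flag libraries, against 60.3 and 79.7 CPM in subconfluent ones. It was higher in all postconfluent libraries and had rank 3 per kilobase in both states. COL18A1 had log2 fold changes of 0.62 ± 0.20 (SE, adjusted p = 0.0355) in Z2flag and 1.09 ± 0.20 (adjusted p = 0.00259) in Z1flag. The Z2flag call ended without any 1 of the 4 Z2flag or both subconfluent Z1flag libraries (log2 0.54 to 0.78, adjusted p = 0.0505 to 0.255, edgeR; 0.00573 to 0.255 over all alternatives), whereas the average over both lines (log2 0.85 ± 0.14, adjusted p = 0.000704) held in every alternative fit. COL18A1 shares 1401 exon bases with SLC19A1 on the opposite strand, and the sources used here do not say how the counting treated strand, so its level is uncertain.

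COL28A1, related to type VI by its domains, passed in Z1flag and missed the threshold in Z2flag. COL28A1 stood at 9.48 and 11.1 CPM in postconfluent Z2flag libraries, against 6.92 and 5.15 CPM in subconfluent ones, and at 15.997 and 10.1 CPM in postconfluent Z1flag libraries, against 5.81 and 5.27 CPM in subconfluent ones. The log2 fold change of COL28A1 was 0.77 ± 0.30 (SE, adjusted p = 0.067) in Z2flag and 1.24 ± 0.30 (adjusted p = 0.00949) in Z1flag. The difference between the lines did not pass (log2 -0.47 ± 0.42, adjusted p = 0.823), and the Z1flag call ended without either subconfluent Z1flag library (log2 1.16 and 1.28, adjusted p = 0.0712 and 0.0582, edgeR; 0.00105 to 0.0805 over all alternatives). COL16A1, a FACIT chain, stood at 1.32 and 1.02 CPM in postconfluent Z2flag libraries, against 0.0951 and 0.0563 CPM in subconfluent ones, and at 1.21 and 0.408 CPM in postconfluent Z1flag libraries, against 0.180 and 0.0382 CPM in subconfluent ones. Its count ratio was 15.3 (6.44 to 44.0) in Z2flag and 8.41 (3.32 to 27.3) in Z1flag, and the Z1flag call ended without postconfluent Z1flag replicate 1 or subconfluent Z1flag replicate 2 (log2 1.96 and 2.16, adjusted p = 0.108 and 0.113, edgeR; 0.00135 to 0.113 over all alternatives). COL20A1, a further FACIT chain, was rare in every library. COL20A1 stood at 1.05 and 0.601 CPM in postconfluent Z2flag libraries, against 0.0713 and 0.0844 CPM in subconfluent ones, and at 0.340 and 0.510 CPM in postconfluent Z1flag libraries, against 0.0451 and 0.114 CPM in subconfluent ones. Its count ratio was 10.8 (4.40 to 31.8) in Z2flag and 4.99 (1.66 to 20.2) in Z1flag. The Z1flag call ended without any 1 of 6 libraries, every one but postconfluent Z1flag replicate 1 and postconfluent Z2flag replicate 2 (adjusted p = 0.0503 to 0.19, edgeR; 0.02 to 0.19 over all alternatives), and the Z2flag call without subconfluent Z2flag replicate 1 (log2 3.20, adjusted p = 0.0521; 0.000243 to 0.0521 over all alternatives).

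COL12A1 and COL26A1 were the other chains that fell. COL12A1 (chromosome 6, 75084326 to 75206051, minus strand) encodes a FACIT chain found on type I fibrils. COL12A1 stood at 37.98 and 11.1 CPM in postconfluent Z2flag libraries, against 61.98 and 86.6 CPM in subconfluent ones, and at 27.1 and 13.2 CPM in postconfluent Z1flag libraries, against 105 and 90.6 CPM in subconfluent ones. The postconfluent replicates differed widely in Z2flag, yet none reached the subconfluent range. By edgeR, the log2 fold change came to -1.59 ± 0.49 (SE, adjusted p = 0.0284) in Z2flag and -2.27 ± 0.50 (adjusted p = 0.00601) in Z1flag. The average over both lines (log2 -1.93 ± 0.35, adjusted p = 0.00114) held in every alternative fit. The Z2flag call ended without postconfluent Z2flag replicate 2, postconfluent Z1flag replicate 2 or either subconfluent Z2flag library (log2 -0.88 for the first, adjusted p = 0.0567 to 0.171, edgeR; 0.00259 to 0.171 over all alternatives), and the Z1flag call without postconfluent Z1flag replicate 2 (log2 -1.86, adjusted p = 0.0676; 2.21e-06 to 0.0676). The fibroblast markers PDGFRA and LUM and the actin-binding gene TAGLN were also lower in postconfluent cells. From the same lists, in the average over both lines, CNN1 and ACTG2 were lower, DES was higher and PDGFRB did not pass. The part of these genes in the fall of COL12A1 was not tested. COL26A1 stood at 11.6 and 12.3 CPM in postconfluent Z2flag libraries, against 25.3 and 21.02 CPM in subconfluent ones, and at 7.98 and 15.4 CPM in postconfluent Z1flag libraries, against 14.6 and 21.98 CPM in subconfluent ones. COL26A1 passed in Z2flag alone, and its states overlapped in Z1flag. COL26A1 had log2 fold changes of -0.96 ± 0.32 (SE, adjusted p = 0.0407) in Z2flag and -0.65 ± 0.32 (adjusted p = 0.131) in Z1flag. The Z2flag call ended without any 1 of the 4 Z2flag libraries or subconfluent Z1flag replicate 2 (log2 -1.10 to -0.83, adjusted p = 0.0502 to 0.2, edgeR; 0.00267 to 0.2 over all alternatives). The average over both lines (log2 -0.81 ± 0.23, adjusted p = 0.0128) missed the threshold without postconfluent Z2flag replicate 1 or subconfluent Z1flag replicate 2 (log2 -0.74 and -0.65, adjusted p = 0.0564 and 0.0637; 7.9e-05 to 0.0637 over all alternatives).

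The remaining chains were at or near 0. Among fibrillar chains COL1A2, COL11A1 and COL24A1 were not tested, among type IV chains COL4A3, and among type VI chains COL6A3, COL6A5 and COL6A6. The other 12 were COL8A1, COL8A2, COL9A1, COL10A1, COL13A1, COL14A1, COL15A1, COL19A1, COL21A1, COL22A1, COL23A1 and COL25A1. Of these 19 genes, 4 (COL1A2, COL8A1, COL9A1 and COL10A1) had 0 counts in all 8 libraries, and the others had at most 12 counts in a library and 28 over all 8. COL6A3 was the highest of them, and its 12 counts came from postconfluent Z1flag replicate 1.

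The lines were then set against each other. No collagen gene passed for the difference between the confluence changes, or for Z2flag against Z1flag in postconfluent or in subconfluent cells (edgeR, 0 of 25 in each, and 0% of all tested genes). DESeq2 and limma voom also called no collagen gene. At an unadjusted p under 0.05 there were 0, 1 and 0 collagen genes, against 902, 1308 and 195 of all 18240. The 1 gene was COL9A2 in postconfluent cells, at 35.3 and 16.1 CPM in Z2flag and 10.5 and 14.4 CPM in Z1flag libraries (log2 1.05 ± 0.38, adjusted p = 0.638). For the difference of the changes, COL9A2 had the smallest unadjusted p, 0.0744 (log2 1.18 ± 0.60, adjusted p = 0.799), and COL6A1 followed with 0.0895 (log2 -0.59 ± 0.32, adjusted p = 0.799). These results do not show that the lines act alike: the SE of the difference was 0.28 for COL18A1 and 1.53 for COL5A3. Postconfluent Z1flag replicate 1, the library with the high share of reads on no feature, was the highest postconfluent library for 12 of the 25 tested collagens and the lowest for 8. Without both first Z1flag replicates fewer collagens passed in Z1flag, where the share of all tested genes called fell as well. COL2A1, COL4A2, COL16A1, COL20A1 and COL28A1 then missed the threshold in Z1flag, with adjusted p from 0.0533 to 0.125 in edgeR.

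Genes that make, export, cut, link, bind and degrade collagen were read out of the same fit, as the average over both lines, in which 27.8% of all tested genes were higher and 27.5% lower. Of 19 tested genes for folding and modification in the endoplasmic reticulum, 8 were higher and 3 lower. Values are means ± SD over the 4 libraries of a state. P4HA1, a catalytic subunit of the prolyl hydroxylase that stabilises the triple helix, averaged 666 ± 111 CPM in postconfluent and 101 ± 3.66 CPM in subconfluent libraries (log2 2.71 ± 0.14, adjusted p = 2.33e-06). PLOD2, the lysyl hydroxylase of the telopeptides, averaged 111 ± 64.5 CPM in postconfluent and 6.17 ± 1.50 CPM in subconfluent libraries (log2 4.07 ± 0.29, adjusted p = 8.08e-06), and P3H3, of the prolyl 3-hydroxylase family, 14.9 ± 1.92 CPM in postconfluent and 1.11 ± 0.300 CPM in subconfluent libraries (log2 3.74 ± 0.25, adjusted p = 6.1e-06). Both states were well apart for each of them. COLGALT2, which adds galactose to hydroxylysine, averaged 9.04 ± 1.29 CPM in postconfluent and 34.4 ± 3.55 CPM in subconfluent libraries (log2 -1.93 ± 0.17, adjusted p = 1.95e-05), and P3H2, a prolyl 3-hydroxylase known to act on type IV collagen, 15.1 ± 3.14 CPM in postconfluent and 46.3 ± 2.31 CPM in subconfluent libraries (log2 -1.62 ± 0.16, adjusted p = 3.79e-05). SERPINH1, the collagen chaperone HSP47, averaged 564 ± 207 CPM in postconfluent and 836 ± 8.17 CPM in subconfluent libraries (log2 -0.60 ± 0.20, adjusted p = 0.0269). Its postconfluent Z2flag replicate 1, at 846 CPM, lay within the subconfluent range. SERPINH1 passed in Z1flag (adjusted p = 0.0288, edgeR) and not in Z2flag (adjusted p = 0.43).

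**Figure D4:**
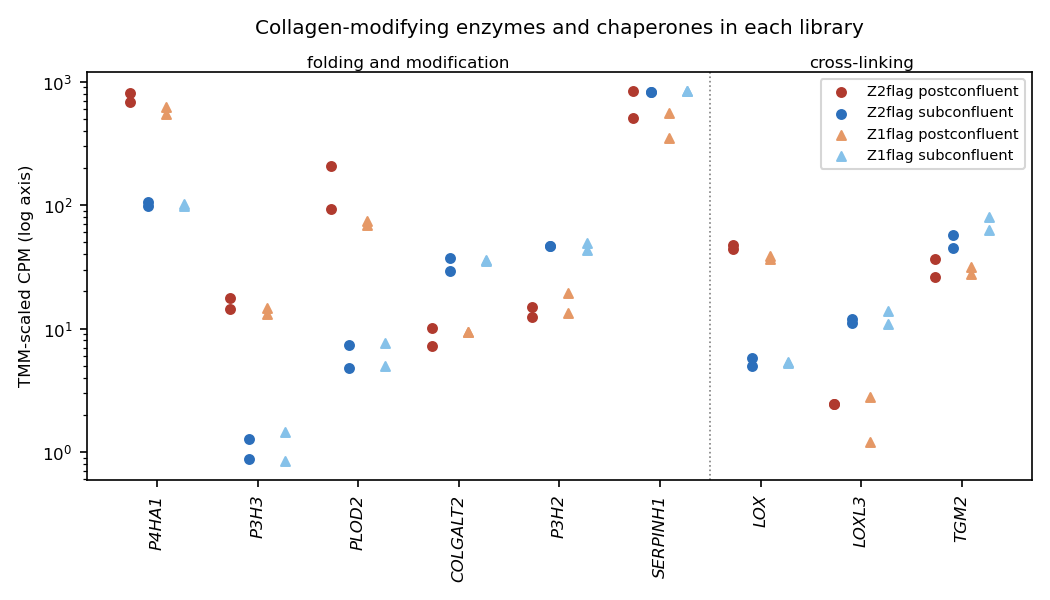
Each point is 1 library, on a log axis of TMM-scaled CPM, for the genes of folding and modification (left) and cross-linking (right) with the smallest adjusted p. Circles are Z2flag and triangles Z1flag, red and orange postconfluent, dark and light blue subconfluent. P4HA1, P3H3, PLOD2 and LOX are higher and COLGALT2, P3H2, LOXL3 and TGM2 lower in all postconfluent libraries, while SERPINH1 overlaps.

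Among 8 tested secretion genes 3 were higher and 1 lower. SEC24D, a coat subunit of the vesicles that carry procollagen, averaged 109 ± 21.7 CPM in postconfluent and 63.9 ± 5.23 CPM in subconfluent libraries (log2 0.76 ± 0.15, adjusted p = 0.00157), CREB3L1, a transcription factor of secretory genes, 13.4 ± 4.19 CPM in postconfluent and 7.19 ± 0.733 CPM in subconfluent libraries (log2 0.87 ± 0.24, adjusted p = 0.0101), and TRAPPC2, a tethering subunit, 27.8 ± 4.47 CPM in postconfluent and 17.7 ± 0.619 CPM in subconfluent libraries (log2 0.65 ± 0.16, adjusted p = 0.00637). KLHL12, the ubiquitin ligase adaptor that enlarges these vesicles, averaged 41.3 ± 4.78 CPM in postconfluent and 57.8 ± 2.12 CPM in subconfluent libraries (log2 -0.49 ± 0.13, adjusted p = 0.00993). TRAPPC2 passed in both lines. SEC24D, CREB3L1 and KLHL12 passed in Z2flag alone (adjusted p = 0.0749, 0.18 and 0.119 in Z1flag, edgeR), and the states of CREB3L1 overlapped. Of 5 tested genes for propeptide processing 4 were higher and none lower, of which ADAMTS14, a procollagen N-proteinase, met the filter only through postconfluent libraries. MEP1A, a brush border protease that can also trim procollagen, averaged 19.8 ± 4.27 CPM in postconfluent and 0.875 ± 0.498 CPM in subconfluent libraries (log2 4.58 ± 0.30, adjusted p = 5.86e-06), PCOLCE, the enhancer of C-proteinase, 3.31 ± 0.309 CPM in postconfluent and 0.502 ± 0.214 CPM in subconfluent libraries (log2 2.79 ± 0.27, adjusted p = 3.14e-05), and BMP1, that proteinase, 22.4 ± 2.33 CPM in postconfluent and 16.6 ± 2.89 CPM in subconfluent libraries (log2 0.43 ± 0.17, adjusted p = 0.0497). MEP1A and PCOLCE passed in both lines, and BMP1 in neither (adjusted p = 0.24 in Z2flag and 0.122 in Z1flag, edgeR). The count of higher processing genes fell without replicate 1 of subconfluent Z1flag cells or replicate 2 of subconfluent Z2flag cells. That of lower secretion genes fell without subconfluent Z2flag replicate 1 and rose without postconfluent Z1flag replicate 1. In each of these fits the share of all tested genes called moved the same way.

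In cross-linking 1 of 6 tested genes was higher and 2 lower. LOX, the lysyl oxidase that starts cross-links between chains, averaged 41.8 ± 5.08 CPM in postconfluent and 5.32 ± 0.342 CPM in subconfluent libraries (log2 2.96 ± 0.15, adjusted p = 2.33e-06). Its relative LOXL3 averaged 2.23 ± 0.699 CPM in postconfluent and 11.9 ± 1.36 CPM in subconfluent libraries (log2 -2.43 ± 0.27, adjusted p = 6.07e-05), and TGM2, a transglutaminase, 30.5 ± 4.61 CPM in postconfluent and 61.2 ± 14.4 CPM in subconfluent libraries (log2 -0.99 ± 0.16, adjusted p = 0.000679). Among 6 tested receptors 2 were higher and 3 lower. The receptor kinase DDR2 averaged 3.83 ± 0.715 CPM in postconfluent and 1.18 ± 0.200 CPM in subconfluent libraries (log2 1.68 ± 0.25, adjusted p = 0.000328) and its relative DDR1 202 ± 34.2 CPM in postconfluent and 127 ± 14.7 CPM in subconfluent libraries (log2 0.66 ± 0.15, adjusted p = 0.00445). ITGA1 and ITGA2, the collagen-binding integrin subunits, averaged 55.4 ± 12.5 CPM in postconfluent and 141 ± 23.1 CPM in subconfluent libraries (log2 -1.33 ± 0.18, adjusted p = 0.000215) and 35.96 ± 26.97 CPM in postconfluent and 95.99 ± 28.02 CPM in subconfluent libraries (log2 -1.45 ± 0.40, adjusted p = 0.0107), and MRC2, an endocytic receptor for collagen fragments, 8.66 ± 1.33 CPM in postconfluent and 20.7 ± 2.89 CPM in subconfluent libraries (log2 -1.25 ± 0.17, adjusted p = 0.000218). ITGA2 passed in Z1flag (adjusted p = 0.0147, edgeR) and not in Z2flag (adjusted p = 0.294), and its states overlapped.

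Of 9 tested genes of collagen degradation and its inhibitors 7 were higher and none lower, of which the collagenases MMP1 and MMP13 met the filter only through postconfluent libraries. MMP14, a membrane-bound collagenase, averaged 155 ± 42.04 CPM in postconfluent and 56.5 ± 4.93 CPM in subconfluent libraries (log2 1.45 ± 0.17, adjusted p = 7.74e-05), TIMP2, an inhibitor of metalloproteinases that also helps MMP14 activate MMP2, 80.9 ± 9.88 CPM in postconfluent and 23.9 ± 8.41 CPM in subconfluent libraries (log2 1.78 ± 0.20, adjusted p = 5.94e-05), and CTSL, a lysosomal protease, 66.8 ± 9.40 CPM in postconfluent and 39.98 ± 5.07 CPM in subconfluent libraries (log2 0.74 ± 0.15, adjusted p = 0.00194). CTSL passed in Z1flag (adjusted p = 0.00664, edgeR) and not in Z2flag (adjusted p = 0.0591). The proteins that join type IV collagen in basement membranes split, with 5 of 11 tested genes higher and 5 lower, of which NID2, nidogen-2, met the filter only through subconfluent libraries. AGRN, a heparan sulfate proteoglycan, averaged 212 ± 17.6 CPM in postconfluent and 85.1 ± 4.18 CPM in subconfluent libraries (log2 1.32 ± 0.13, adjusted p = 3.7e-05), FBLN1, fibulin-1, 392 ± 55.1 CPM in postconfluent and 129 ± 24.4 CPM in subconfluent libraries (log2 1.61 ± 0.16, adjusted p = 3.79e-05), and SPARC, a collagen-binding glycoprotein, 5.45 ± 2.66 CPM in postconfluent and 2.15 ± 0.479 CPM in subconfluent libraries (log2 1.34 ± 0.31, adjusted p = 0.00431). SMOC2, a relative of SPARC, averaged 3.02 ± 1.22 CPM in postconfluent and 15.7 ± 6.07 CPM in subconfluent libraries (log2 -2.41 ± 0.35, adjusted p = 0.000305), FREM2, of the Fraser complex, 68.8 ± 24.04 CPM in postconfluent and 126 ± 30.6 CPM in subconfluent libraries (log2 -0.88 ± 0.28, adjusted p = 0.0225), and DAG1, the laminin receptor dystroglycan, 121 ± 18.4 CPM in postconfluent and 171 ± 11.8 CPM in subconfluent libraries (log2 -0.50 ± 0.15, adjusted p = 0.0175). FREM2 passed in Z2flag (adjusted p = 0.049, edgeR) and not in Z1flag (adjusted p = 0.225), and its states overlapped. DAG1 passed in neither line (adjusted p = 0.129 in Z2flag and 0.0605 in Z1flag). The 5 lower partners became fewer whichever 1 library was left out. The share of all tested genes called rose without either postconfluent Z1flag library and fell without any other library.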

How the data were processed

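The values analysed are raw counts per Ensembl gene that the authors deposited for 8 stranded, rRNA-depleted, paired-end libraries, per the labels. Per the submitters' processing notes, hg38, STAR 2.5.2b, HTSeq and SAMtools were used. The annotation and strand setting of the counting were not given in the sources used here. GENCODE v29 held 58039 of the 58302 IDs and gave positions and exon lengths, and 57532 IDs had a symbol. Reads in the HTSeq classes of unassigned reads were left out.

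All 8 libraries were fitted together as 4 group means with 4 residual degrees of freedom (R 4.3.3, edgeR 4.0.16, TMM, robust quasi-likelihood F test) on the 18240 genes that passed filterByExpr (minimum count 10, minimum total 15). Benjamini-Hochberg adjustment covered all of these genes, the threshold was 0.05, and the collagen rows were read from that fit. The SE is the log2 fold change divided by the square root of F. CPM use the counts of the tested genes and TMM factors, and CPM per kilobase the union of exons. Ratios of few counts have exact binomial intervals of 95%, which cover counting error only. For genes with 0 counts the floor is 3 counts over all 8 libraries.

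The collagen members, classes and pathway and marker lists were chosen with earlier results of these data known. Values per library are given for tested members with at least 5 CPM in a group or a call in a line, ranges for the others, and from each pathway list up to 3 higher and 3 lower genes of smallest adjusted p with a mean of at least 1 CPM. The alternatives tried were scaling by RLE or upper quartile, limma 3.58.1 voom, DESeq2 1.42.0, no filter, at least 5 CPM in 2 libraries, at least 2-fold, only the libraries compared, a replicate block and leaving out each library. A fit without both first Z1flag replicates, and all alternatives for the pathway lists, were added after the data were seen. Ranges given for a gene over all alternatives cover only the fits in which that gene was tested, and leave out the 2-fold setting. The pipeline was tested on simulated data. Promoter windows for 32 of the 44 genes come from RefSeq on GRCh38.p14. Figures were drawn with matplotlib 3.10.9.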

Additional observations from a re-analysis of the deposited data

How the results depend on the processing

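No collagen gene called in a comparison changed direction under any alternative. A filter of at least 5 CPM in 2 libraries tested 17 collagens, against 25 in the main fit. Of the 17, the higher collagens numbered 8 in Z2flag, 9 in Z1flag and 9 in the average over both lines. With this filter 43.5%, 44.9% and 59.8% of all tested genes were called in either direction. With 1 library left out, the numbers of higher and lower collagens changed in both lines and in the average. The share of all tested genes called changed as well, and the cause was not tested. A lone library left in a group was assumed to vary like the other groups. Upper-quartile scaling moved the median of all genes to a log2 change of 0.18 in the average over both lines, against -0.01 with TMM, and changed no collagen's direction. It ended the Z2flag calls of COL4A1 and COL26A1, as did the 5 CPM filter, and RLE scaling ended that of COL26A1. DESeq2 ended the COL9A3 calls in Z2flag and in the average, and the COL20A1 call in Z1flag. With no filter the Z2flag calls of COL5A1, COL9A3 and COL18A1 and the Z1flag call of COL20A1 ended. For the differences between the lines no alternative called a collagen gene. Other genes were called in some: with no filter 0.117% of all tested genes for the difference of the changes. For Z2flag against Z1flag that fit called 0.628% in postconfluent and 0.00569% in subconfluent cells. Without postconfluent Z1flag replicate 2 some were also called, for the difference of the changes and between the lines in postconfluent cells. Replicate numbers were not taken as pairs: deviations of same-numbered libraries correlated from -0.18 between the postconfluent groups to 0.178. The replicate block gave 14 higher and 6 lower collagens in Z2flag, 14 and 4 in Z1flag and 15 and 6 in the average, as without it. For the pathway lists, requiring at least 2-fold, which can only remove calls, left 5 higher folding genes, 0 higher and 0 lower secretion genes, 1 lower cross-linking gene, 1 higher receptor, 4 higher degradation genes and 2 lower basement membrane partners. Lower secretion genes numbered 0 with upper-quartile scaling and 2 with limma voom or no filter, and lower basement membrane partners 2 with upper-quartile scaling. The 5 CPM filter left 2 higher processing genes, 1 higher receptor and 2 lower basement membrane partners. Without both first Z1flag replicates these were 2 higher processing genes and 3 lower partners. Over single libraries left out, the counts of lower secretion genes, higher processing genes and lower partners also changed. So did the share of all tested genes called, and the causes were not tested. With 2 libraries a group, the SE of the difference between the lines ran from 0.28 for COL18A1 to 1.53 for COL5A3. Collagens that did not reach about 0.426 CPM in 2 libraries were not tested.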
